A study of Aptenodytes patagonicus with 3 samples.

Results

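The genes of the cytosolic ribosome are described here in pectoralis muscle of artificially acclimated (AA) juvenile king penguins. They were chosen by name: every probe set whose single gene symbol in the platform's annotation reads RPL, RPS or RPLP followed by a digit, or RPSA, without the RPS6K kinases. This gave 67 genes of the 12913 that the annotation names, read by 135 of the 36813 probe sets on the array. Each gene was read from its brightest probe set. RPSA was named by 0 probe sets, and 43 symbols belong to the large subunit and 24 to the small one by name. Of the 67, 59 are named as plain subunits. The other 8 are RPL3L, RPL7L1, RPL22L1, RPL26L1, RPL39L and RPS27L, named as copies of a subunit gene, RPS4Y1, which carries the name of a Y-linked copy known from mammals, and RPS19BP1, which encodes a protein that binds a subunit and is not one.

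The muscle came from 3 AA birds, the male bird 2 and the females birds 1 and 3, each hybridized to its own Affymetrix Chicken Genome array. All were juveniles that moulted in captivity before their first sea entry and were then put in water at 8 °C for 5 hours on 10 occasions, 1 every 2 days. The study's never-immersed and sea-acclimatized birds were not analysed here, so no value below is an effect of immersion. What the 3 arrays allow is a description of how these genes varied between birds of 1 condition, and of the male against the females. Values are the authors' quantile-normalized log2 signals, and an error of ± is the SD over the birds. Since chicken probes bind penguin RNA unequally, differences were taken between birds within a probe set. Where levels of different genes are set side by side or summed, they describe signal and not amounts of RNA. In bulk muscle, fewer cells of a type and less RNA per cell cannot be told apart.

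A ribosome is built from a large and a small subunit, each an assembly of ribosomal RNA with many proteins, most of them small, basic and present as a single copy. In vertebrates the messenger RNAs of nearly all these proteins, and of several elongation and initiation factors, begin with a pyrimidine-rich stretch called the TOP motif, through which the kinase mTORC1 and the RNA-binding protein LARP1 set their translation and stability. Striated muscle also has a copy of its own, RPL3L, which can take the place of RPL3 near the peptidyl transferase centre. Rising and falling ribosome number is one of the ways by which muscle changes its capacity to make protein.

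Markers of skeletal muscle were bright on all arrays. Of the 12 listed 7 were named, with means from 11.70 for DES to 15.27 for ACTA1, which held the highest value of each array. The 7 summed to 131593 in the male, against 120910 in female 1 and 129123 in female 3. Bird 1 was the lowest for 5 of them, and the male was the highest for 4. Against the females 5 were higher in the male, MYLPF by 0.76 and DES by 0.64, and 1 was lower, TNNT3, with a difference of -0.08. Of the red cell markers 6 of 14 were named, and their median difference in the male was 0.02, with 4 higher and 2 lower than in the females. Both bright globins were lower, with HBAD at 14.06 in the male, against 14.95 and 14.41 in the females, and HBE at 13.74, against 14.23 and 14.27. The membrane genes RHAG and EPB42 were higher, by 0.57 and 0.35. The summed linear signal of the list, which the globins carry, was 32849 in the male, against 52962 in female 1 and 43187 in female 3.

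The 5 markers of muscle precursors summed to 3238 in the male, against 5551 and 5622 in the females. Against the mean of the females 4 of them were lower in him, MYOD1 by a difference of -1.005 and MYOG by -0.96. He was the lowest bird for 3 and bird 3 for 2. The sums of the females were carried by different genes. MYOG read 11.16 in bird 1, against 9.62 in the male and 9.995 in bird 3. MYOD1 read 11.70 in bird 3, against 10.24 in the male and 10.80 in bird 1. The 8 fibroblast markers summed to 11216 in bird 1, against 7241 and 6869 in birds 2 and 3, with 7 of them higher in bird 1. The 8 leukocyte markers summed to 5104 in bird 1, against 6668 and 7004 in birds 2 and 3, and bird 1 was the lowest for 7 of them. The 7 endothelial markers summed to 8765 in the male, against 8846 and 8409 in the females. No marker was at 0, since 0 of the values on the arrays are 0. Of 6 markers of other tissues, listed as ones that should be low, 5 were named. Their means were 11.92 for APOA1, 10.18 for ALB, 8.84 for INS, 8.33 for NEUROD1 and 8.32 for GCG, where the array median was 8.62. Whether a bright signal on these chicken probes always reflects expression in muscle was not tested. The part of other cell types in the differences below was not tested.

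The ribosomal protein genes differed little between the birds. Their median SD was 0.12, against 0.20 over all genes, and 53 of the 67 lay below that median of all genes. The highest and lowest bird were within 0.2 log2 units for 28 members, 41.8% of them, against 17.3% of all genes. They were over 0.5 apart for 6 members, 8.96%, against 33.2% of all genes. The members are bright, and 57 of them had a mean above 11.52, the level that 95% of probe sets do not reach. Among genes with a mean of at least 11 the median SD was 0.11 for 59 members and 0.23 for 1907 other genes. At a mean of at least 13 it was 0.10 for 38 members and 0.20 for 195 other genes. At a mean of at least 14 it was 0.05 for 11 members and 0.08 for 38 other genes, whose SDs reached 0.45. The members thus had the smaller median SD in each range, but the ranges are open at the top and do not match the sets for signal. In bird 1 the median level was 13.3 for members and 11.8 for other genes in the first range. It was 13.8 and 13.4 in the second, and 14.2 and 14.3 in the last. The median SD of the other genes was near or above that of all genes in the first 2 ranges and below it in the last. Whether the top of the scale compresses differences was not tested.

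The smallest spreads were those of RPL35 and RPL37A, proteins of the large subunit, and of RPS2 and RPS16 of the small one. RPL35 read 14.18 in the male, against 14.17 in both females (SD 0.0040). RPL37A read 13.993 in birds 1 and 2 and 14.0007 in bird 3 (SD 0.0043). RPS2 read 13.44 in the male, against 13.41 and 13.40 in the females. RPS16 read 14.30 in the male, against 14.34 and 14.33 in the females. All 4 had means above 13. On quantile-normalized arrays equal ranks hold nearly equal values, so SDs this small mean near-equal ranks in the birds. ACTA1, the highest value of each array, read 15.27 in all birds with an SD of 0. How far the normalization narrowed these spreads was not tested.

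**Figure D1:**
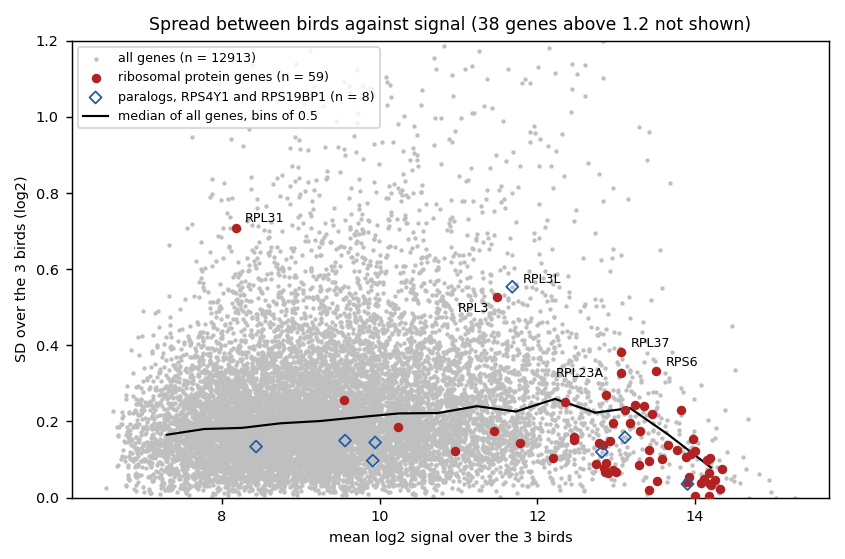
SD over the 3 birds against mean log2 signal, with a grey point for each of 12913 genes, red points for 59 plain subunit genes, blue diamonds for the 8 other members and a black line for the median of all genes in bins of signal. Most members sit at the right and under the line. RPL31, RPL3L and RPL3 stand above it with the largest SDs, and other members lie above it too, among them RPL37, RPS6 and RPL23A. The 38 genes above an SD of 1.2 are not shown.

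The pair of females was closer than either was to the male. The median absolute difference of a member was 0.14 between the male and female 1, 0.17 between the male and female 3, and 0.08 between the females. Over all genes these were 0.25, 0.26 and 0.20, and over the brightest 10% of genes 0.32, 0.29 and 0.17. Without the male the median SD of the members was 0.06 in place of 0.12.

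The male had the lowest value of the 3 birds for 32 of the 67 members, which is 47.8%, against 32.5% of all genes and 39.0% of the brightest 10% of genes. He had the highest value for 22 members, 32.8%, against 41.5% of all genes. For 12 members he lay between the females, and 3 members held a tie between birds. Bird 1 was the lowest for 14 members, 20.9%, against 34.2% of all genes, and the highest for 22, against 27.4%. Bird 3 was the lowest for 19 members, 28.4%, against 33.2%, and the highest for 22, against 31%. The order male, female 3, female 1 from low to high was held by 18 of the 64 members without ties, 28.1%, against 15.8% of all genes. The median difference, male minus the mean of the females, was -0.05 over the members and 0.04 over all genes, and 38 members were lower in the male. It was -0.06 over the 43 large-subunit symbols, of which he was the lowest for 21, and -0.02 over the 24 small-subunit symbols, of which he was the lowest for 11. The difference between the subunits, -0.04, was smaller than most single differences and had the other sign, 0.03, without female 3. The median shift of female 1 against the other birds was 0.01 over the members and -0.02 over all genes, and that of female 3 was 0.02 and -0.01.

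Limma, the moderated test named in the study's methods, was fitted to all 36813 probe sets for 1 bird against the others. For the male against the females 0 of the 67 members passed at an adjusted p under 0.05, as did 0 of all probe sets (0%). At an unadjusted p under 0.05, 4 members passed, 5.97% of them, against 9.78% of all probe sets. They were RPL31 and RPL23A, lower in the male, where 6.32% of all probe sets were, and RPL37 and RPS6, higher, where 3.46% were. For bird 1 against the others 0 members passed the adjusted threshold, with 0.755% of all probe sets called (0.676% higher and 0.0788% lower). At an unadjusted p, RPL3 and RPL31 passed for bird 1, both higher, which is 2.99% of the members against 4.67% of all probe sets (3.17% higher and 1.5% lower). For bird 3 it was 0 members, with 0% of all probe sets called. At an unadjusted p, RPL3L passed for bird 3, lower, which is 1.49% of the members against 2.68% of all probe sets (1.85% higher and 0.829% lower). With both directions together, the share of the members was below that of all probe sets for each bird. By direction it was above it for bird 3 lower, which is RPL3L alone. The 2 shares are counted unlike, since a member stands for its brightest probe set alone and the other share takes in all probe sets, dim ones included. These fits rest on 1 residual degree of freedom and assume for the single bird the same variance as for the pair. No label says that the birds differ by more than sex and number, and an exact two-sided permutation test of 1 bird against 2 cannot go below p = 0.333.

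**Figure D2:**
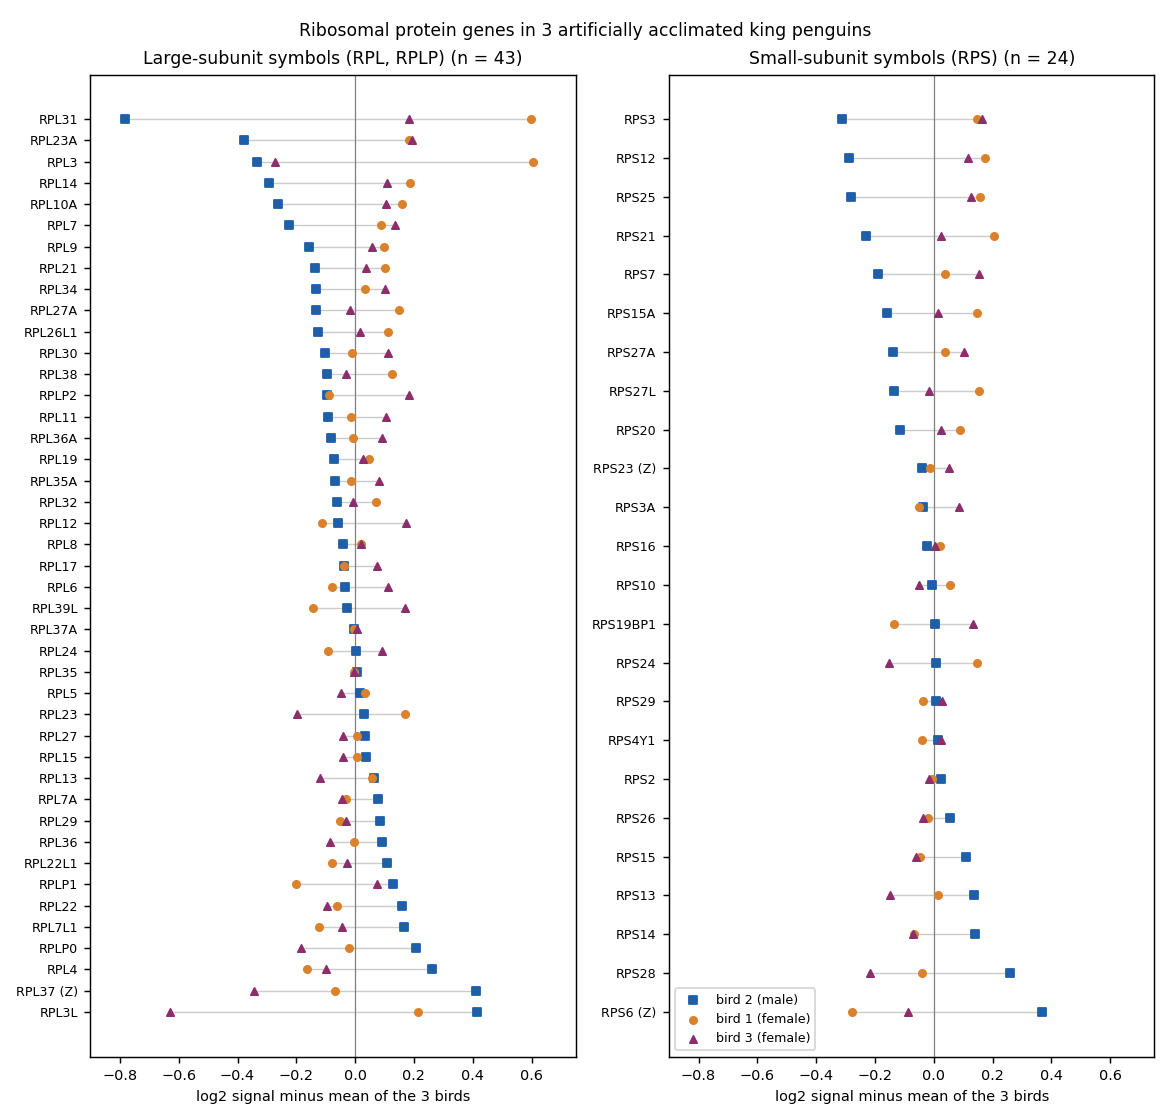
Log2 signal of each bird minus the mean of the 3 birds for the 43 large-subunit symbols (left) and the 24 small-subunit symbols (right), ordered by the male minus the females, with squares for the male, circles for female 1 and triangles for female 3; (Z) marks members on chromosome Z. The male is the lowest bird for 32 of the 67 and the females lie close together for most.

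The members with the lowest values in the male relative to the females were RPL31, RPL23A, RPL3, RPS3 and RPL14. RPL31, a protein at the rim of the tunnel through which the new chain leaves, read 7.39 in the male, against 8.78 and 8.36 in the females, a difference of -1.17 (SE 0.26, adjusted p = 0.218 from limma). With a mean of 8.18 its signal lay below the array median of 8.62, which holds for 2 members in all. The male's value also lay below the lower quartile of the arrays, 7.87. On the other probe set of RPL31 the male difference had the other sign, 0.57. RPL23A, which lies beside that exit and binds the signal recognition particle, read 12.69 in the male, against 13.25 and 13.26 in the females, a difference of -0.57 (SE 0.23, adjusted p = 0.469 from limma). The females were within 0.01 of each other here, and the male stood clear of both.

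RPS3, which lines the entry of the messenger RNA and is also known in DNA repair, read 12.56 in the male, against 13.02 and 13.04 in the females. RPL14, a protein of the large subunit, read 9.25 in the male, against 9.73 and 9.66 in the females. Their differences were -0.47 and -0.44, with the females again within 0.1 of each other. On their brightest probe sets RPS12, RPS25 and RPL10A had the same shape with differences of -0.43, -0.42 and -0.39. The next probe set of RPS12 did not, with 11.54 in the male, against 11.92 in female 1 and 11.57 in female 3. On its dimmest the male difference was 0.03. None of these differences passed the test.

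The members with the highest values in the male relative to the females were RPL3L, RPL37, RPS6, RPL4 and RPS28. RPL4, which reaches into the exit tunnel, read 14.09 in the male, against 13.66 and 13.73 in the females, a difference of 0.39 (SE 0.23, adjusted p = 0.644 from limma). RPS28, a small-subunit protein near the messenger RNA exit, read 13.61 in the male, against 13.32 and 13.14 in the females, a difference of 0.39 (SE 0.24, adjusted p = 0.656 from limma). On the brightest probe sets the male was above both females for all 5 of these genes, which were picked by their male difference. The other probe sets of RPL4 and RPS28 gave male differences of -0.51 and -0.01.

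By symbol, 64 members were found in RefSeq's annotation of a king penguin genome (assembly bAptPat1.pri.cur), and 3 of them lie on chromosome Z. Male birds carry a pair of Z chromosomes and females a single one. RPS6, the small-subunit protein that the S6 kinases phosphorylate, read 13.88 in the male, against 13.23 and 13.43 in the females, a difference of 0.55 (SE 0.24, adjusted p = 0.503 from limma) or 1.46-fold. RPL37, a zinc-binding protein of the large subunit, read 13.48 in the male, against 12.998 and 12.72 in the females, a difference of 0.62 (SE 0.24, adjusted p = 0.455 from limma) or 1.53-fold. RPS23, which lies at the decoding centre, read 14.22 in the male, against 14.24 and 14.31 in the females, a difference of -0.06 (SE 0.23, adjusted p = 0.950 from limma). So 2 of the 3 Z-linked members were highest in the male and RPS23 was the lowest in him. Each of the 3 was read by 1 probe set. Of all 464 genes on Z the male was the highest bird for 256 and the lowest for 88.

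The median male difference of the 3 Z-linked members was 0.55, against -0.05 for the 61 members placed elsewhere. Over all genes it was 0.13 for the 464 on Z and 0.03 for the 10079 placed elsewhere. With 3 members, one of which had the other sign, these medians are given as values only. RPL17, RPL39L and RPS4Y1 were not matched to a symbol of the table and were not placed.

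**Figure D3:**
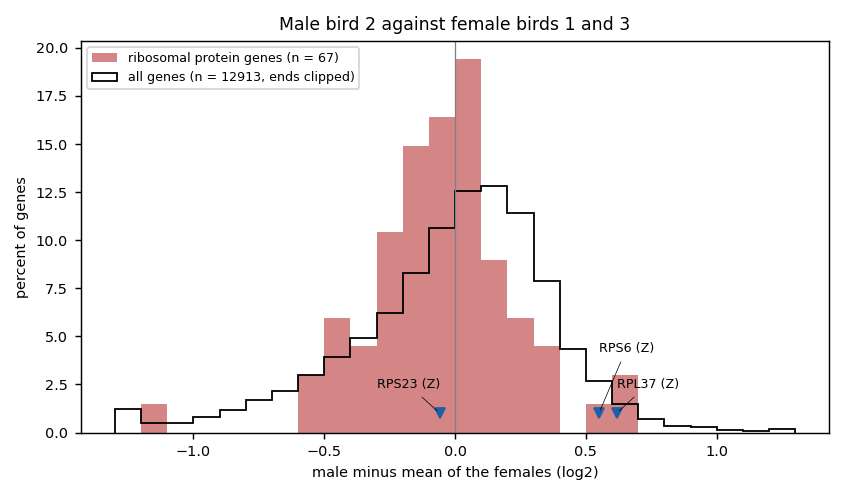
Male minus the mean of the females on the log2 scale for the 67 ribosomal protein genes (red bars) and all 12913 genes (black outline), as percent of each set, with triangles at the 3 members on chromosome Z. The members are centred at -0.05 and the genes at 0.04, and RPS6 at 0.55 and RPL37 at 0.62 lie at the right end. RPL3L, which is not on Z, lies there too at 0.62.

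RPL3 and its muscle copy RPL3L were among the 3 members with the widest spread, and their birds were ordered differently. RPL3 read 12.10 in bird 1, against 11.16 in bird 2 and 11.22 in bird 3 (11.49 ± 0.53, SD, n = 3). Bird 1 lay above the others by 0.91 (SE 0.31, adjusted p = 0.361 from limma), or 1.88-fold. RPL3L read 11.05 in bird 3, against 11.90 in bird 1 and 12.10 in bird 2 (11.68 ± 0.55, SD, n = 3). Bird 3 lay below the others by a log2 difference of -0.94 (SE 0.26, adjusted p = 0.999 from limma), or 0.520 of their level.

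Thus bird 1 was high for RPL3 and bird 3 was low for RPL3L. In the male against the females, RPL3 had a difference of -0.50 and RPL3L one of 0.62, so the difference of the copy exceeded that of the parent gene by 1.12. The male lay near bird 3 for RPL3, at 11.16 against 11.22, and nearer bird 1 than bird 3 for RPL3L. The 1.12 is thus not set by the male alone. Each gene was read by 1 probe set, and that of RPL3 is of the type (_s_at) that can bind several transcripts. In bird 1, where RPL3 was high, the fibroblast marker COL3A1 was higher than in the others by 1.35 (adjusted p = 0.0305 from limma) and the myogenic factor MYOG by 1.35 (adjusted p = 0.0255 from limma). Their part in the RPL3 value was not tested.

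The other copies varied less. RPL22L1 read 10.02 in the male, against 9.83 and 9.89 in the females, and its parent gene RPL22 read 12.99 in the male, against 12.78 and 12.74 in the females. On these brightest probe sets both were highest in the male, by 0.16 and 0.24. The 3 probe sets of RPL22L1 gave male differences from -0.13 to 0.54, and he was the lowest bird on 1 of them. RPL7L1, a protein of the nucleolus, read 9.73 in the male, against 9.44 and 9.52 in the females, whereas RPL7 read 12.74 in the male, against 13.05 and 13.10 in the females. For this pair the male was the highest bird for the copy and the lowest for the parent gene. RPL26L1 read 12.69 in the male, against 12.93 and 12.84 in the females. RPS27L, a target of p53 in mammals, read 9.81 in the male, against 10.10 and 9.93 in the females. RPL39L read 13.08 in the male, against 12.97 and 13.28 in the females. RPL26, RPS27 and RPL39 were not among the 67 members, so these copies had no parent gene to be set beside.

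RPLP0, RPLP1 and RPLP2 form the stalk of the large subunit, which recruits the elongation factors and holds several copies of RPLP1 and RPLP2. RPLP0 read 13.38 in the male, against 13.16 and 12.99 in the females. RPLP1 read 11.58 in the male, against 11.25 and 11.53 in the females. RPLP2 read 12.37 in the male, against 12.38 and 12.65 in the females. On these brightest probe sets the male was thus the highest bird for the first 2 and the lowest for the last, with differences of 0.31, 0.19 and -0.14. Their SDs ran from 0.16 to 0.20, all at or below that of all genes, 0.20. For RPLP2 the male was the lowest by little, at 12.3701 against 12.3752 in female 1. Its other probe set read 8.96 in the male, against 8.64 and 8.46 in the females. The 5 probe sets of RPLP1 gave male differences from -0.39 to 0.27, and he was the lowest on 1 of them.

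For 32 members more than 1 probe set named the gene, and these did not always order the birds alike. The male lay on the same side of the females on all probe sets for 9 members and on both sides for 23. Of the 68 probe sets other than the brightest, 39 gave the male the same direction as the brightest, which is 57.4%, against 53.2% over all genes with several probe sets. Among probe sets at or above the array median it was 25 of 37, or 67.6%, against 55.8%. The same bird was the lowest on 20 of these 37, 54.1%, against 38.6% over all genes. The correlation of the birds' deviations between the brightest and the other probe sets of a member was 0.01 over all 68 and 0.30 over these 37, against 0.08 and 0.13 for all genes. The points of these correlations share arrays and genes.

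RPL31 was the widest case. On its other probe set it read 8.35 in the male, against 7.83 and 7.74 in the females, so that the male was the highest bird there and the lowest on the brightest. Both probe sets had means under the array median. RPL4 was read by another bright probe set at 13.36 in the male, against 13.70 and 14.03 in the females, again with the male at the other end. RPL36, a large-subunit protein, read 12.84 in the male, against 12.74 and 12.67 in the females. On its other probe set it read 11.0002 in the male, against 11.71 and 11.94 in the females. RPL27 read 14.11 in the male, against 14.08 and 14.04 in the females. On its dimmest probe set the values were 7.02 in the male, against 7.61 and 8.27 in the females.

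The probe sets of other members were closer to each other in direction. RPL10A, which lies at the L1 stalk where spent transfer RNA leaves, was lowest in the male and highest in female 1 on each of its 3 probe sets, with male differences from -0.39 to -0.33. RPS7, a small-subunit protein also known to bind MDM2 in mammals, read 13.11 in the male, against 13.33 and 13.45 in the females. Its other probe set gave 11.90 in the male, against 12.64 and 12.61 in the females. The male was the lowest on both, while the females changed places. The probe sets of the next genes were mixed. RPL24 had 7 probe sets, and the 3 brightest of them, of the type (_x_at) that can bind several transcripts, gave male differences of 0.01, 0.08 and 0.04, while the next gave -0.69. RPS25 had 7 as well, of which the male was lowest on 4. The sequences of the probe sets were not used here.

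**Figure D4:**
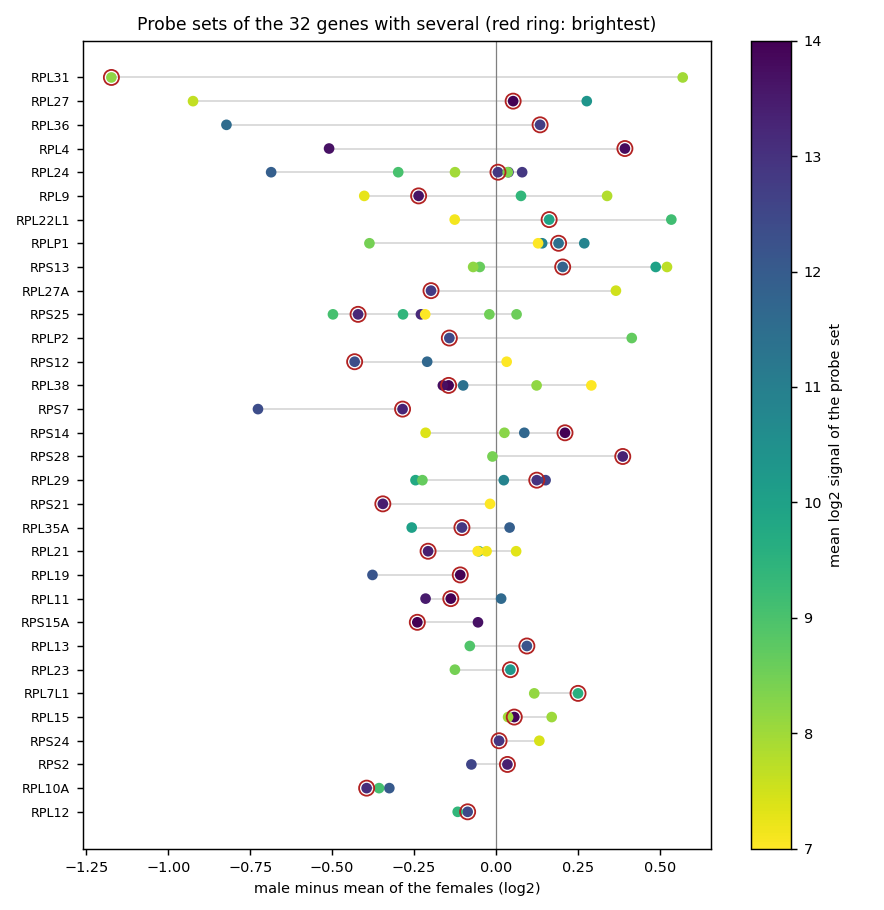
Male minus the mean of the females on the log2 scale for every probe set of the 32 members read by more than 1, with colour for the mean log2 signal of the probe set and a red ring round the brightest. For 9 members all points lie on 1 side of 0, and RPL31, RPL27, RPL36 and RPL4 span the most.

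Beyond the ribosome itself, genes that make or control it were read by lists. Of 17 other genes whose messenger RNAs carry or are reported to carry a TOP motif, all were named on the array. The male was the lowest bird for 13, against 32.5% of all genes and 39.0% of the brightest 10% of genes. He was the highest for 2, and the median difference was -0.19. Most of the list is bright, with 13 genes above 11.52, the level that 95% of probe sets do not reach. The list had 0 genes past the adjusted threshold and 2 of 17 past an unadjusted one, against 9.78% of all probe sets. HNRNPA1, an RNA-binding protein, read 10.47 in the male, against 11.26 and 11.54 in the females. EEF1A1, the elongation factor that brings transfer RNA to the ribosome, read 13.28 in the male, against 13.93 and 13.66 in the females. EEF1A2, its muscle and nerve form, read 14.95 in the male, against 14.97 in both females. EEF1G, a subunit of the exchange factor of EEF1A, read 9.24 in the male, against 8.59 and 8.66 in the females, and EIF4B, a helper of the cap-binding complex, 9.15 in the male, against 8.92 and 8.93. These last 2 were the genes of the list that were highest in the male.

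Genes of TOP control, 16 of 18 named, had a median difference of -0.14 in the male and 0.21 in bird 3, and 4 of the 16 were lower in the male at an unadjusted p, against 6.32% of all probe sets, and 0 at an adjusted p. CNBP, a nucleic acid-binding protein reported at TOP stretches, read 12.30 in the male, against 13.01 and 13.55 in the females. TBC1D7, a subunit of the TSC complex that restrains mTORC1, read 9.43 in the male, against 9.95 and 10.23 in the females. LARP1 read 10.58 in the male, against 10.28 and 10.33 in the females, and RPS6KB2, an S6 kinase, 9.85 in the male, against 9.61 and 9.33. The kinase gene MTOR read 9.25 in the male, against 8.90 and 9.08 in the females. The list thus pools MTOR with genes of the complex that restrains mTORC1, so its median has no direction for TOP control.

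Ribosome biogenesis factors, 67 named of 75, had a median SD of 0.18, between that of the ribosomal proteins, 0.12, and of all genes, 0.20. Biogenesis factors also had a lower signal, with a median level of 9.72 in bird 1, against 13.25 for the ribosomal proteins. Their median male difference was 0.04, equal to that of all genes, with 10 of 67 lower and 3 higher at an unadjusted p, against 6.32% and 3.46% of all probe sets, and 0 at an adjusted p. RIOK1, a kinase that matures the small subunit, read 11.43 in the male, against 12.56 and 12.55 in the females, a difference of -1.13 (SE 0.23, adjusted p = 0.198 from limma). NOP14, another small-subunit factor, read 7.87 in the male, against 8.87 and 9.05 in the females. RRP9, part of a small nucleolar ribonucleoprotein, read 11.04 in the male, against 10.27 and 10.04 in the females. NSA2, a large-subunit factor, read 11.66 in the male, against 10.89 and 10.90 in the females.

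RNA polymerase I, which makes the ribosomal RNA, and its factors had a median male difference of -0.0038 over the 16 named of 20, with 2 of 16 lower and 1 higher at an unadjusted p, against 6.32% and 3.46% of all probe sets, and 0 at an adjusted p. TWISTNB, a subunit of the polymerase, read 9.52 in the male, against 10.62 and 10.68 in the females. TAF1A, of the factor that recruits it, read 7.27 in the male, against 8.04 and 7.72 in the females. TTF1, by its symbol the factor that ends its transcription, read 10.92 in the male, against 10.36 and 9.95 in the females, and the subunit POLR1E 9.98 in the male, against 9.64 and 9.27. RACK1, a protein of the small subunit that the name rule does not take, read 11.37 in the male, against 11.76 and 11.50 in the females.

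**Figure D5:**
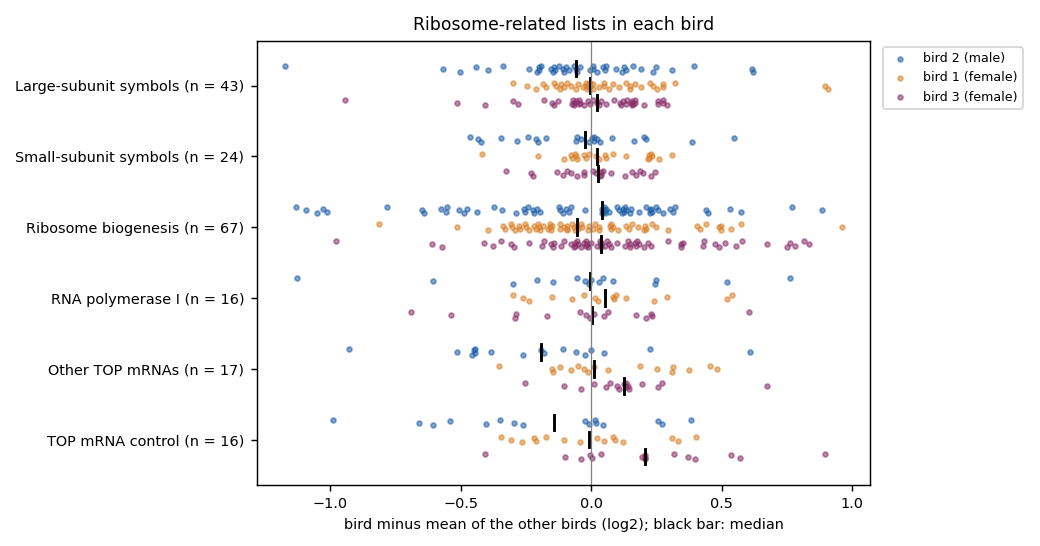
Each bird minus the mean of the other birds on the log2 scale, a point per gene, for the large-subunit and small-subunit symbols and 4 lists of related genes, with black bars at the medians. Most ribosomal protein genes lie near 0, but they reach -1.17 and 0.62 in the male. Biogenesis factors reach -1.13 and 0.88 in the male, and the other TOP genes have their male median at -0.19.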

How the data were processed

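Pectoralis RNA of 3 AA juveniles was hybridized to Affymetrix Chicken Genome arrays. By the methods, the authors summarised probes with MaxRS, took log2, applied quantile normalization and deposited 1 log2 signal per probe set and bird. Which arrays were normalized together is not stated. Limma is listed among the submitters' processing notes, with no version. Values were used as deposited. Symbols came from the platform annotation, in which 26041 probe sets name 1 gene, 170 several and 10602 none. Chromosomes came from RefSeq by symbol, without coordinates.

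Limma 3.58.1 in R 4.3.3 (lmFit, eBayes) compared each bird with the other pair on all 36813 probe sets, with Benjamini-Hochberg adjustment. The code of this step was run on simulated data. The simulation drew probe sets independently, with spreads from the limma fit itself, so it cannot say how the test fares on these arrays. Lists were described by medians and counts beside all genes. For arrays, their number limits the precision. Named are the members with the 8 largest and 4 smallest SDs, the 5 largest male differences each way, the stalk genes, the Z-linked genes, copies with the genes they derive from, members whose probe sets disagree most, and the 2 extremes each way of each pathway list. RPS12, RPS25, RPL10A, RPS7, RPL7, RPL7L1, EEF1A2, MTOR and the cell type markers were added after their values were seen. Members and lists were chosen with earlier results of these data known.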

Additional observations from a re-analysis of the deposited data

How the results depend on the processing

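Of 74 values under alternatives, 63 stayed within the spread between birds or, for counts, within 1.5 times. Not every alternative could move a value. Leaving out the dimmest 25% of probe sets removed 0 members, so their medians and rank counts could not change. Quantile normalization was run again on values already normalized that way and changed them little. These settings count among the 63 and say little about how stable the results are. The same holds for the member counts of the male and bird 3 at the adjusted threshold. With 1 residual degree of freedom they had little room to move. The number of members past the test was 0 for each bird with quantile normalization run again, median centring, an intensity trend, without the dimmest 25% of probe sets and without probe sets of types _s_at and _x_at. With the methods' threshold, an unadjusted p, it was 4 for the male, 2 for bird 1 and 1 for bird 3. Without _s_at and _x_at types the median difference of bird 1 was 0.0528, against 0.0071 with them, and the subunit difference was -0.0134, against -0.0354. Leaving out 1 bird, the median difference ran from 0.0141 to 0.0178 for bird 1, from -0.0660 to -0.0178 for the male and from -0.0141 (without the male) to 0.0660 for bird 3. The median SD then ran from 0.0571 (without the male) to 0.122, and the subunit difference from -0.0056 to 0.0295 (without bird 3). The cause of these shifts was not tested. The male was the lowest bird for 32 or 33 members under the alternatives that kept all 67. It was 27 of 58 without _s_at and _x_at types, against 31.8% of all genes, and 30 of the 59 plain subunits, against 32.5%. Among the brightest 10% of genes, a choice made after seeing the data, it was 28 of 58. No paired analysis was possible because the labels give 1 group. Both probe sets of RPL31 were dimmer than the array median.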
